A study of Mus musculus with 8 samples.

Results

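The Ikaros family comprises zinc finger transcription factors that bind DNA through N-terminal fingers and dimerize with one another through C-terminal fingers. *Ikzf1*, which encodes Ikaros, is the founding member, and the present account covers the other 4 genes of the family, *Ikzf2* (Helios), *Ikzf3* (Aiolos), *Ikzf4* (Eos) and *Ikzf5* (Pegasus). They were taken by name, as 4 of the 21142 protein-coding genes that could be placed on GRCm38 with a strand. Acetylation of lysine 27 of histone H3 (H3K27ac) marks active promoters and enhancers, and it was read here in the P5424 line, which resembles T cell precursors and was derived from mouse thymocytes that lack Rag1 and p53. The study removed IkE120, an enhancer about 120 kb upstream of *Ikzf1*, by CRISPR/Cas9. H3K27ac ChIP-seq was available for wt P5424 cells and for ΔIkE120 cells, which are 1 clone screened by PCR for loss of the element from both alleles. The labels do not state whether these cells had been stimulated. The series also held 6 4C-seq libraries with the *Ikzf1* promoter as bait, from DN3 thymocytes, from ES cells, and from P5424 cells of each genotype that were either left unstimulated or given 20 µg/ml PMA with 0.5 µg/ml ionomycin for 6 h. Each condition had 1 library, so there were no replicates. For H3K27ac no SD, p-value or test can be given, and no test was made on the 4C libraries. A difference between the genotypes and a difference between a pair of libraries or a pair of clones cannot be told apart. The ChIP-seq depth is unknown, since only peak lists were analysed here.

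The wt list held 34553 peaks over 25189952 bp and the ΔIkE120 list 29902 peaks over 22143580 bp, a ratio of 0.879 in bases. A shorter list therefore formed the background of every comparison with ΔIkE120 cells. The deleted element lay inside a wt peak from 11563705 to 11565348 on chromosome 11 (1644 bp). No base of the element was in a ΔIkE120 peak. The deletion fixed that absence in advance, so it serves only as a check of the labels. The ΔIkE120 list held a peak beside the element, from 11564652 to 11565363 (712 bp), which shared 697 bases with the wt peak. Markers of the cell type carried the mark in both lists, as 14 of 15 T cell precursor markers (among them *Cd3e*, *Cd3d* and *Cd3g*, subunits of the T cell receptor complex) had a peak within 1 kb of their start, where 44.5% of all genes did in wt and 43.8% in ΔIkE120 cells. *Il2ra* was the exception in both. The ratio of their covered bases, ΔIkE120 to wt, taken over windows described below, had a median of 0.934. Of 5 myeloid markers, 1 had such a peak in wt cells (*Mpo*) and 0 in ΔIkE120 cells. Of 3 erythroid markers, 1 (*Klf1*) was marked in both lists, a share near that of all genes.

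The first question was which family genes carried H3K27ac at their start, taken as a peak within 1 kb of the outermost RefSeq start. *Ikzf2*, *Ikzf3* and *Ikzf5* did so in both genotypes, and *Ikzf4* in neither. The count was thus 3 of 4 in wt cells, where 44.5% of the 21142 genes had a start peak, and 3 of 4 in ΔIkE120 cells, where 43.8% did. Over all genes 43.4% had a start peak in both lists, 1.11% in wt only and 0.478% in ΔIkE120 only, and 0 of the 4 family genes had one in a single list. The presence of a start peak therefore did not separate the genotypes at any family gene. *Ikzf1* was likewise marked at its start in both. The start used for *Ikzf4* is the outer edge of its RefSeq gene models, and whether it is the start in use in these cells was not tested.

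Peaks were then counted over each gene body plus 20 kb to either side, and the bases they covered were summed. *Ikzf3* stood far above the other family genes, with 11 peaks and 11266 covered bases in wt cells and 11 peaks and 11226 bases in ΔIkE120 cells. *Ikzf4* followed in wt cells with 5 peaks and 3167 bases, *Ikzf2* with 5 peaks and 2688 bases, and *Ikzf5* with 2 peaks and 2316 bases. In ΔIkE120 cells *Ikzf5* held 2 peaks and 1420 bases, *Ikzf4* 1 peak and 1177 bases, and *Ikzf2* 2 peaks and 1104 bases. The order below *Ikzf3* thus differed between the lists, and with 1 library each it has no spread to be judged by. Of all genes, only 69 had more covered bases than *Ikzf3* in wt cells and 44 in ΔIkE120 cells. The *Ikzf1* window came close to this, with 9766 bases in wt and 9548 in ΔIkE120 cells, and was exceeded by 116 and 83 genes. Since windows differ in length, the covered share was also taken. It was 9.28% in wt and 9.25% in ΔIkE120 cells for *Ikzf3*, and 7.63% and 7.46% for *Ikzf1*. *Ikzf2* lay at the other end, with 1.37% and 0.563%. By covered share *Ikzf3* was above 95.7% of all genes in wt and 96.5% in ΔIkE120 cells, and *Ikzf1* above 92.3% and 93.2%. By covered bases *Ikzf3* was above 99.7% and 99.8%, so its standing was less extreme once window length was taken into account.

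The ratio of covered bases, ΔIkE120 to wt, divided the family. It was 0.996 for *Ikzf3* (log2 -0.01) and 0.978 for *Ikzf1* (log2 -0.03), against 0.613 for *Ikzf5* (log2 -0.71), 0.411 for *Ikzf2* (log2 -1.28) and 0.372 for *Ikzf4* (log2 -1.43). The *Ikzf1* window reaches 20 kb upstream and so leaves out IkE120, about 120 kb away. From signal tracks, the paper reports less H3K27ac near the deleted element and, to a smaller degree, at the *Ikzf1* promoter. It also reports reduced *Ikzf1* mRNA. Covered bases measure the extent of peaks, not their signal. Over the 13651 genes with covered bases in both lists the median ratio was 0.937, with quartiles of 0.820 and 1.04, and 66.3% of genes were below 1. A ratio lower by 1.5-fold or more was found at 3 of 4 family genes and at 9.27% of all genes, and one higher by 1.5-fold or more at 0 of 4 and at 2.1%. Within these 13651 genes, *Ikzf4* was among the 1.16% with the lowest ratios, *Ikzf2* among the lowest 1.59% and *Ikzf5* among the lowest 6.64%. *Ikzf2*, *Ikzf4* and *Ikzf5* had few peaks, so genes with at most 5 wt peaks were also taken separately, a choice made after the data had been seen. Of these 11344 genes, 9.53% were lower by 1.5-fold or more. A further 491 genes had covered bases in wt cells only, which makes their ratio 0. Another 156 had them in ΔIkE120 cells only and have no ratio. Both groups were left out of the median, shares and ranks above. With the 491 genes the 9.27% share would be higher, and *Ikzf2*, *Ikzf4* and *Ikzf5* would rank less low.

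**Figure D1:**
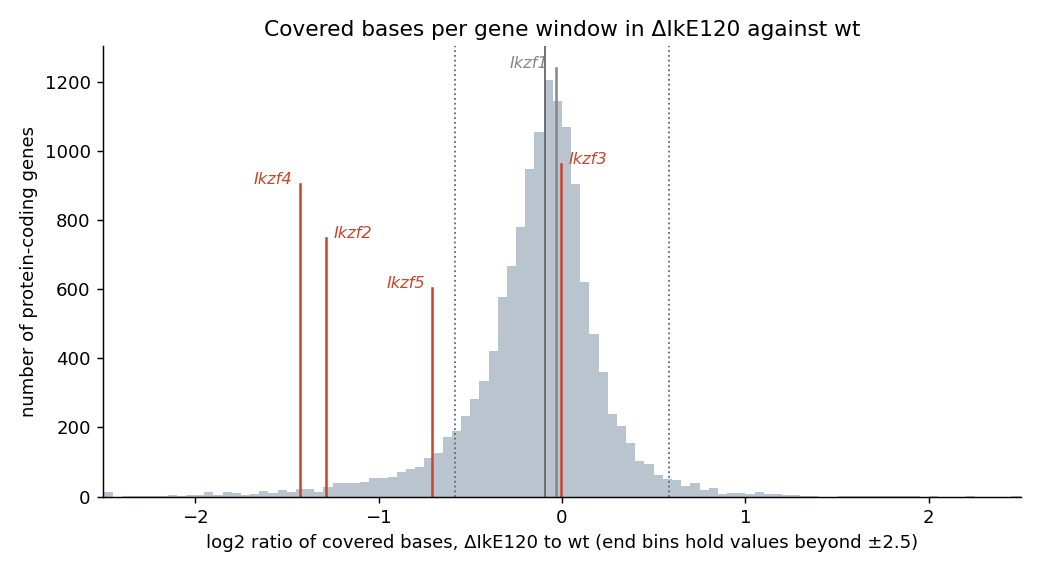
Distribution of the log2 ratio of covered bases, ΔIkE120 to wt, over 13651 protein-coding genes (grey bars, number of genes per bin; the solid line is their median and the dotted lines mark 1.5-fold). Red and dark grey lines mark the family genes and their height has no meaning; *Ikzf3* and *Ikzf1* lie near the median, while *Ikzf5*, *Ikzf2* and *Ikzf4* lie below the lower dotted line.

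The lower values at *Ikzf2* and *Ikzf4* depended on how weak peaks were treated. When peaks with a −log10 q below the median of their list were left out, the ratio was 0.767 at *Ikzf2* and 0.922 at *Ikzf4*, with a median of 0.959 over all genes. Only *Ikzf5*, at 0.613, was then past 1.5-fold, beside 10.4% of all genes under the same restriction. This restriction takes out all unmatched wt peaks of the family. When both lists were instead trimmed to equal size by score, *Ikzf2* was at 0.474 and *Ikzf4* at 0.399, and 3 of 4 family genes were lower by 1.5-fold or more, beside 6.5% of all genes. The window also mattered, for *Ikzf4* over the gene body alone, where 0 bases were left in ΔIkE120 cells, and for *Ikzf5*. The *Ikzf5* ratio was 0.765 over the gene body alone, 0.555 with 10 kb and 0.776 with 50 kb to either side.

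Peaks missing from 1 list were counted next. The 4 windows held 23 wt peaks, of which 8 (34.8%) were not overlapped by any ΔIkE120 peak, compared with 25.6% of the whole wt list. They held 16 ΔIkE120 peaks, of which 1 (6.25%) was not overlapped by a wt peak, compared with 13.6% of the whole ΔIkE120 list. The 8 unmatched wt peaks had −log10 q-values between 1.49 and 3.72, and all 8 lay below the median of the wt list, 4.12. Whether unmatched wt peaks of the whole list are as weak was not tested. The single unmatched ΔIkE120 peak, inside *Ikzf3*, had a −log10 q of 1.31 where the median of that list was 4.47. Of the 8, 3 were at *Ikzf2*, 4 at *Ikzf4*, 1 at *Ikzf3* and 0 at *Ikzf5*, so these counts did not follow the ratios at *Ikzf5*. On so few peaks the shares are a description and set the family apart from neither list.

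Peaks that were matched 1 to 1 could also differ in length. Over 22698 such pairs the ΔIkE120 peak was a median 0.963 times as long as the wt peak (quartiles 0.814 and 1.10), and 58.4% were shorter. In the family windows 7 of 15 pairs were shorter in ΔIkE120 cells. At *Ikzf3* it was 2 of 10, with a median length ratio of 1.09. At *Ikzf2* and *Ikzf5* all pairs, 2 of 2 each, were shorter, as was the 1 pair of *Ikzf4* (0.922). At *Ikzf1*, which is not among these windows, 7 of 8 pairs were shorter, with a median length ratio of 0.910. Its window also held 3 unmatched ΔIkE120 peaks and 2 unmatched wt peaks. The ratio of reported fold enrichment, ΔIkE120 to wt, had quartiles of 0.954 and 1.10 over all pairs. It was 1.22 and 1.21 at *Ikzf2*, 1.14 at *Ikzf4*, and 1.22 and 1.21 at *Ikzf5*. At *Ikzf3* it ranged from 0.894 to 1.23. Shorter matched peaks at *Ikzf2*, *Ikzf4* and *Ikzf5* thus did not have lower fold enrichment. Fold enrichment and q-values are as the caller reported them and, with depth unknown, are not taken as amounts of H3K27ac.

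**Figure D2:**
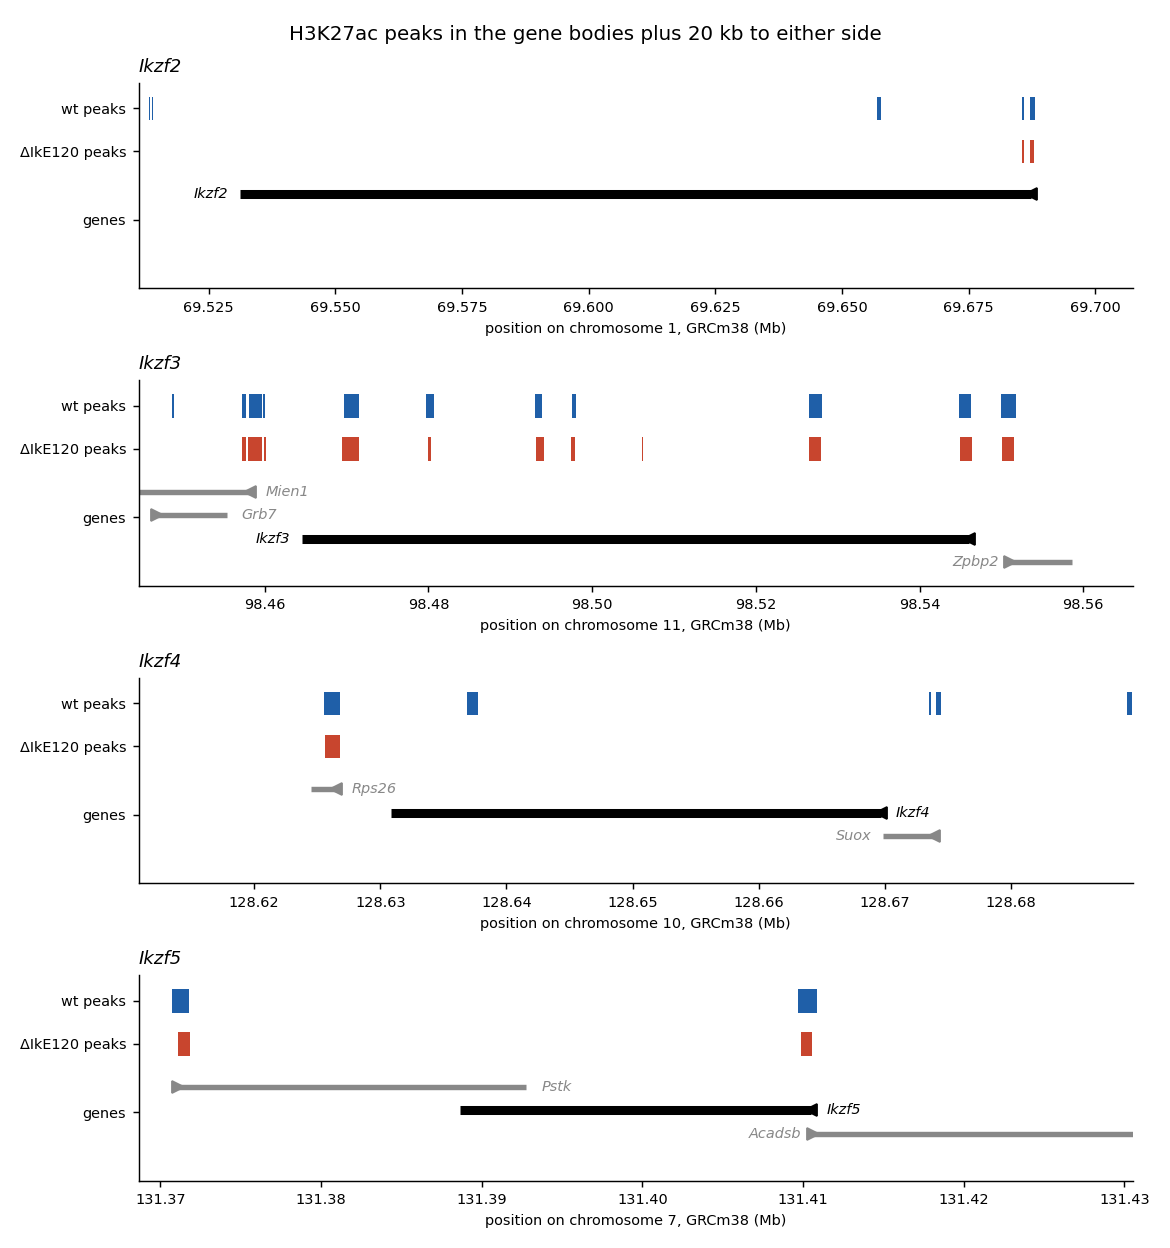
Maps of *Ikzf2*, *Ikzf3*, *Ikzf4* and *Ikzf5* with 20 kb to either side, drawn to scale along GRCm38 positions in Mb, with wt peaks in blue, ΔIkE120 peaks in red, the family gene in black and other protein-coding genes that start in the window in grey (arrowheads mark starts). The 11 peaks of *Ikzf3* in each list contrast with the stretch without peaks in the 5′ part of *Ikzf4*.

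*Ikzf3* encodes Aiolos, a lymphoid factor known from B cell and T cell differentiation. The gene lies on the minus strand of chromosome 11, from 98464610 to 98546031. Its start peak ran from 98544845 to 98546231 in wt cells (1387 bp, fold enrichment 2.77, −log10 q 13.5) and from 98544889 to 98546420 in ΔIkE120 cells (1532 bp, fold enrichment 2.92, −log10 q 13.2). Inside the gene, apart from the start, there were 5 wt peaks and 6 ΔIkE120 peaks. The longest began at 98469692 in wt cells (1768 bp) and at 98469467 in ΔIkE120 cells (1991 bp), the wt peak 74572 bp from the start at its nearer edge. The peak at 98526469 in wt and 98526444 in ΔIkE120 cells was 1546 bp long in both. The widest departure was a wt peak of 917 bp at 98479738, which met a ΔIkE120 peak of 352 bp at 98479946, a length ratio of 0.384 that only 1.85% of all pairs matched or fell below. Each of the 5 wt peaks inside *Ikzf3* thus had a ΔIkE120 counterpart, though lengths differed. Other pairs inside the gene were longer in ΔIkE120 cells. Their length ratios reached 1.25, which 87.4% of all pairs matched or fell below. The unmatched ΔIkE120 peak lay between 98506039 and 98506249, and the unmatched wt peak between 98448642 and 98448856, 15754 bp beyond the 3′ end.

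Other genes share the *Ikzf3* window. The peak with the highest −log10 q there in wt cells, 21.9 (above 96.4% of the list), did not belong to the *Ikzf3* start. Its ΔIkE120 counterpart had 17.3 (above 90.4%), below the *Zpbp2* peak of that list. The wt peak ran from 98458017 to 98459608, 5002 bp beyond the 3′ end, and covered the outermost RefSeq start of *Mien1* at 98458230. For *Mien1* the RefSeq promoter table gives another start, at 98438988, so the place of this peak depends on the gene model. *Grb7*, an adaptor protein gene, had no start peak in either list. Upstream of *Ikzf3*, a peak at the start of *Zpbp2* measured 1832 bp in wt cells (−log10 q 14.5) and 1474 bp in ΔIkE120 cells (−log10 q 19.5). The wt peak ended 3950 bp upstream of the *Ikzf3* start. *Ikzf1* and *Ikzf3* have related neighbours on the same chromosome, *Zpbp* and *Grb10* beside the former, and *Zpbp2* and *Grb7* beside the latter. The starts of *Ikzf3* and *Zpbp2* are 5.07 kb apart and those of *Ikzf1* and *Zpbp* 221 kb. Only *Zpbp2* of these 4 neighbours had a start peak, and it had one in both lists. Without peaks near the starts of other genes, the *Ikzf3* window still held 7323 bases in wt and 7456 in ΔIkE120 cells.

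*Ikzf2* encodes Helios, known from regulatory T cells and from subsets of thymocytes. It spans 69531207 to 69687351 on the minus strand of chromosome 1, the longest of the 4 genes, and no other protein-coding gene starts in its window. The start peak reached from 69687033 to 69688087 in wt cells (1055 bp, fold enrichment 3.78, −log10 q 8.35) and from 69687130 to 69687938 in ΔIkE120 cells (809 bp, fold enrichment 4.57, −log10 q 8.87). All 809 bases of the ΔIkE120 peak lay in the wt peak. A small peak just inside the gene, at 69685486 in wt cells (358 bp) and 69685550 in ΔIkE120 cells (295 bp), was also present in both. These start-proximal peaks were all that the ΔIkE120 list held. The wt list added a peak of 647 bp from 69656957 to 69657603 inside the gene (−log10 q 3.36). It also added a pair beyond the 3′ end, at 69513137 (318 bp, −log10 q 2.97) and 69513751 (310 bp, −log10 q 1.97), the nearer of them 17147 bp from that end.

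*Ikzf4* encodes Eos, a corepressor partner of Foxp3 in regulatory T cells. It spans 128630839 to 128669671 on the minus strand of chromosome 10. No peak of either list lay between 128637711 and 128673478. Any other start in that stretch, if more than 1 kb from its ends, was thus without a peak within 1 kb too. In wt cells 1 peak lay inside the gene, from 128636838 to 128637711 (874 bp, fold enrichment 3.50, −log10 q 3.72), and the ΔIkE120 list held none there, so the gene body alone had 874 covered bases against 0. The single ΔIkE120 peak of the window, 1177 bp with a −log10 q of 23.1, was at the start of *Rps26*, a ribosomal protein gene, where wt cells had 1277 bp (−log10 q 16.6). Without peaks near the starts of other genes, 1253 bases were left in wt cells and 0 in ΔIkE120 cells. *Suox*, the sulfite oxidase gene whose start is 4247 bp upstream of that of *Ikzf4*, had a start peak in wt cells only. It consisted of short peaks of 217 bp at 128673478 (−log10 q 1.49) and 420 bp at 128674030 (−log10 q 3.29). *Suox* thereby belongs to the 1.11% of genes with a start peak in wt only. Of the other regulatory T cell markers, *Foxp3* and *Il2ra* had no start peak in either list, and *Ctla4* and *Tnfrsf18* had one in both. The covered bases of these 4 markers had ratios of 0.575 (*Foxp3*), 0.726 (*Il2ra*), 0.733 (*Ctla4*) and 0.897 (*Tnfrsf18*), with a median of 0.730 beside 0.937 over all genes. Of the 4, 1 was lower by 1.5-fold or more, where 9.27% of all genes were. Whether these values and those of *Ikzf2* and *Ikzf4* have a common source was not tested.

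*Ikzf5* encodes Pegasus, a broadly expressed member that recognizes a DNA sequence unlike that of its relatives. It spans 131388649 to 131410518 on the minus strand of chromosome 7 and shares its promoter region with *Acadsb*, an acyl-CoA dehydrogenase gene that starts 83 bp away on the other strand. The peak there had the highest −log10 q of the family's start peaks in both lists. In wt cells it ran from 131409698 to 131410895 (1198 bp, fold enrichment 4.93, −log10 q 20.2, above 95.1% of the list). In ΔIkE120 cells it ran from 131409891 to 131410555 (665 bp, fold enrichment 5.98, −log10 q 24.0, above 96.7%). The ΔIkE120 peak was shorter at both edges and ended before the *Acadsb* start at 131410601, with a length ratio of 0.555 that 7.31% of all pairs matched or fell below. The other peak of the window, at the start of *Pstk*, a kinase gene of selenocysteine synthesis, measured 1118 bp in wt and 755 bp in ΔIkE120 cells. Both peaks were thus present in both lists, and the lower coverage at *Ikzf5* was a matter of peak edges, not of missing peaks. Without peaks near the starts of other genes nothing remained of this window, since the *Ikzf5* start peak also lies at *Acadsb*.

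Of the 4 family genes, 1 (*Ikzf5*) was found in the RefSeq promoter table (GRCm38.p6). *Ikzf2*, *Ikzf3* and *Ikzf4* are missing from it. Sequences are shown for the *Ikzf5* promoter and for the gene starts nearest to those of *Ikzf3* and *Ikzf4*, namely *Zpbp2* and *Suox*. They were searched on both strands for 5 motifs, and the share of 32851 promoters with each motif in the 250 bases upstream of the start is given beside it. The Ikaros family motif TGGGAA was present at 21.6% of promoters. Its core, GGGAA, was present at 56.2%, and every match of the longer motif is also a match of the core. The Runx motif TGTGGT was present at 14% and the Ets motif, written as CAGGAAG, at 10.8%. The E-box, CANNTG, was present at 66.2%. Matches other than E-boxes are in capitals. A match is a description of the letters and not of binding. The first is the interval between the *Ikzf5* and *Acadsb* starts, chr7:131410519-131410600, 82 bp read on the minus strand toward *Ikzf5*, in which the ΔIkE120 peak ended.
Ikzf5: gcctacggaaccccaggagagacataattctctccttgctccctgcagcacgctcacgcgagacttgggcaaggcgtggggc
This interval, shorter than the windows of the shares above, held none of the 5 motifs, 5 CpG and 62.2% G and C. The full 250 bases upstream of the table's *Ikzf5* start held 1 GGGAA core, none of the other 4 motifs, and 18 CpG. The next is upstream of *Zpbp2*, chr11:98550847-98551096, on the plus strand, between *Zpbp2* and *Ikzf3*.
Zpbp2: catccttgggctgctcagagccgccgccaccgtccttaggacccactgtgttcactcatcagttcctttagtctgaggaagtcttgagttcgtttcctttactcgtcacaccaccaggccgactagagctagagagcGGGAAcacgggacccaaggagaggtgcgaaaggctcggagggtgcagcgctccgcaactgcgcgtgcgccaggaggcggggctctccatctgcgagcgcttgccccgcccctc
The *Zpbp2* sequence held 1 GGGAA core, 2 E-boxes, 19 CpG and 62.4% G and C, where the median promoter had 6 CpG and 52.4%. The last is upstream of *Suox*, chr10:128673919-128674168, on the minus strand, which 1 of the wt peaks overlapped in part and no ΔIkE120 peak did.
Suox: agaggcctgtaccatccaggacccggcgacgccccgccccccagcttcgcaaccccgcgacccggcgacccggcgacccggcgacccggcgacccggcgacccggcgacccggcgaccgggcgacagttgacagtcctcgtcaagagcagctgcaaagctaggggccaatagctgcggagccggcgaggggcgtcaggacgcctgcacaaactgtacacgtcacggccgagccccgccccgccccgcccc
It had 35 CpG and 74.4% G and C, with 2 E-boxes and none of the other 4 motifs.

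Partners and regulators of the family were read in the same way. Ikaros proteins recruit the NuRD complex and other corepressors, and of 18 such genes 17 had a start peak in both lists, among them *Chd4*, *Chd3* and *Hdac1*, where 43.4% of all genes did. *Ctbp2* had none. Their median ratio of covered bases was 0.924, near that of all genes, and 1 of 17 genes with a ratio (*Sin3b*, 0.629) was lower by 1.5-fold or more, beside 9.27% of all genes. The human cereblon ligase marks Ikaros and Aiolos for degradation in the presence of thalidomide analogs. Whether the ligase does so in these mouse cells was not tested. Of the 5 mouse genes of this ligase, 4 had a start peak in both lists (*Crbn*, *Ddb1*, *Cul4a* and *Rbx1*), where 43.4% of all genes did. *Cul4b* had none. The median ratio of the 5 was 1.07, beside 0.937 over all genes. Of the 5, 0 were lower and 0 higher by 1.5-fold or more, beside 9.27% and 2.1% of all genes. Among 10 genes known as repressed by Ikaros or as Notch targets in thymocytes, 7 had a start peak in wt cells and 6 in ΔIkE120 cells (44.5% and 43.8% of all genes), with a median ratio of 0.873 over 9 genes. *Dtx1* and *Ptcra* were marked in both lists and *Hes1* in neither. The difference was *Igll1*, which encodes a chain of the surrogate light chain of pre-B cells. It had a start peak in wt cells only, as 1.11% of all genes did. Its window had 2572 covered bases in wt against 1307 in ΔIkE120 cells, a ratio of 0.508. Of the 9 genes of this list with a ratio, only *Igll1* was lower by 1.5-fold or more, beside 9.27% of all genes.

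The genes most like each member were taken by the Euclidean distance of log2 covered bases in both libraries and log2 gene length, over 2 libraries. For *Ikzf3* they were *Znrf1* (distance 0.168; 10940 and 10513 bases in wt and ΔIkE120 cells) and *Bcl2l1* (0.200; 12489 and 11749 bases). For *Ikzf2* they were *Clic5* (0.149; 2545 and 1049 bases) and *Syt14* (0.246; 2716 and 1308 bases). *Ikzf4* was nearest to *Otulin* (0.220; 3401 and 1176 bases) and *Mgat3* (0.258; 3315 and 1375 bases). *Ikzf5* was nearest to *Hsbp1l1* (0.0914; 2194 and 1425 bases) and *Wrnip1* (0.113; 2421 and 1450 bases). The likeness in these values is what chose the genes.

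*Ikzf3* lies on the chromosome of the 4C bait, 86.9 Mb from *Ikzf1* by their starts, and could be read in those libraries too. Positions here are of mm9, in which the gene spans 98326216 to 98407345. The libraries held between 1756688 and 3943018 reads on this chromosome. The window with 20 kb to either side has 290 DpnII fragments, and the number with at least 1 read was 4 in DN3, 3 in ES, 4 in unstimulated wt, 3 in stimulated wt, 2 in unstimulated ΔIkE120 and 3 in stimulated ΔIkE120 cells. The share of fragments with reads over all positions more than 10 Mb from the bait ranged from 1.10% to 1.65%, which for 290 fragments comes to between 3.19 and 4.79. The *Ikzf3* window was thus covered about as sparsely as distant chromatin. How strong a contact would have to be to show at this depth was not tested. Read numbers were 37 in DN3, 68 in ES, 25 in unstimulated wt, 41 in unstimulated ΔIkE120 and 96 in stimulated ΔIkE120 cells. Stimulated wt cells had 928 reads, more than 89% of 1519 distant genes, but 915 of them were on 1 fragment and 13 on the rest. Scaled to the reads over 15 kb from the bait (RPM), the window held 24.3 RPM in DN3, 22.0 in ES, 14.3 in unstimulated wt, 608 in stimulated wt, 12.3 in unstimulated ΔIkE120 and 44.1 in stimulated ΔIkE120 cells. With 50 kb to either side the DN3 value was 162 RPM, from 247 reads on 8 fragments, so the order of the libraries depended on the window. Reads carried no molecular identifiers, so PCR copies and separate ligations cannot be told apart.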

How the data were processed

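H3K27ac ChIP-seq (2 libraries) and 4C-seq (6 libraries) were analysed from the authors' processed files. The authors deposited broad peaks, called per library, with a score, a fold enrichment, a −log10 p-value and a −log10 q-value. The submitters' processing notes name Bowtie2 2.3.4.3, MACS2 2.1.1 and GRCm38 without stating roles, and the peak threshold is not given in the sources used here. For 4C-seq the authors deposited raw counts, that is, reads mapped to mm9 with Bowtie 1.0.0 for each DpnII fragment of chromosome 11. Peaks were intersected with RefSeq genes (GRCm38.p6), using 21142 of 21900 protein-coding genes (96.5%), with strands from GENCODE M1 or the promoter table. An overlap needed 1 base, and a ratio was called at 1.5-fold. Overlap code was tested on simulated intervals. Named genes are the family, *Ikzf1*, genes starting in a window, the 2 nearest genes by coverage and length, genes of the lists with a start peak in 1 library only, and the first 3 of a list; others were named after their values were seen. A further list of lineage markers is not reported here. The members and lists were chosen with earlier results of these data known. Alternatives were other windows, stricter peaks, equal list sizes and a 50% overlap. Python 3.11.15, numpy 2.4.6, pandas 2.3.3 and matplotlib 3.10.9 were used.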

Additional observations from a re-analysis of the deposited data

How the results depend on the processing

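The start counts of 3 and 3 did not change with windows of 500 bp or 2.5 kb, without the weaker peaks of each list (−log10 q below its median), or with equal list sizes. The *Ikzf3* ratio stayed between 0.997 and 1.05 under all 6 alternatives. Without the weaker peaks, *Ikzf2* gave 0.767 and *Ikzf4* 0.922, unmatched peaks numbered 0 in wt and 0 in ΔIkE120 cells, and 1 family gene was lower by 1.5-fold (10.4% of all genes), since weak peaks leave both lists by construction. Over the gene body alone the ratio was 0 for *Ikzf4* and 0.765 for *Ikzf5*, and 1 family gene with a ratio above 0 was past 1.5-fold (10.2% of all genes). With 10 kb to either side *Ikzf5* gave 0.555 and 3 family genes were past 1.5-fold (9.45% of all genes), and with 50 kb it gave 0.776 and 2 were (8.63%). Without peaks near other starts *Ikzf4* gave 0, and *Ikzf5* had no value because 0 bases remained in both lists. With equal list sizes, 3 family genes were lower by 1.5-fold (6.5% of all genes), and 3 ΔIkE120 peaks were unmatched, as fewer wt peaks entered. The cause of the other changes was not tested. Counts of family genes past 1.5-fold under alternatives were added after seeing the data. Of 42 H3K27ac values under alternatives, 31 stayed within 1.5 times of the reported value and, for ratios, also on its side of 1.5-fold, and the 11 others are those given above. For the 4C reads of *Ikzf3*, 9 of 12 values kept their place by the same measure or, for fragments, their side of the median distant gene. No paired analysis was possible because each genotype had 1 H3K27ac library; the 4C libraries were not tested. Unknown ChIP-seq depth limits every statement about absent peaks.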
